A study of Mus musculus with 28 samples.

Results

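The 8 semaphorin, neuropilin and plexin genes described here were examined for the binding of Ldb1, CTCF and Rad21 in mature olfactory sensory neurons of the mouse, which detect odours in the nose. Nrp1, Nrp2, Plxna1, Plxna3, Plxna4, Sema3a, Sema3f and Sema7a were chosen by name from the semaphorin pathway, 8 of 21779 protein-coding genes on chromosomes 1 to 19, X and Y, and a gene was given the peaks that overlapped its body extended by 10 kb on each side. Of the 28 samples of the series, the 11 chromatin immunoprecipitation libraries with a peak list were used. Ldb1 was mapped in 2 libraries from neurons of Lhx2fl/fl mice with OMP-IRES-Cre and the reporter Rosa-CAG-tdtom+/fl (Lhx2 KO), in 2 libraries from Olfr1507+ cells of M28-IRES-GFP mice, and in 3 libraries from OMP-IRES-GFP control mice. CTCF and Rad21 were each mapped in 2 libraries from OMP-IRES-GFP control mice. Omp is switched on in mature neurons, so the Omp-driven Cre acts only after a neuron has matured. The sources used here give no age for these mice, and the 3 input and 14 RNA samples were not analysed here. Binding alone was measured, so nothing here gives the expression of any gene.

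Semaphorins are guidance cues, and plexins are the receptors that pass the signal into the cell. Most secreted class 3 semaphorins do not bind plexins firmly by themselves and need a neuropilin as co-receptor, Nrp1 for Sema3a and Nrp2 for Sema3f, while the membrane-anchored Sema7a signals through Plxnc1 and integrins. In the olfactory system Sema3a with Nrp1 and Sema3f with Nrp2 sort the axons of sensory neurons on their way to the olfactory bulb, and Sema7a takes part in forming synapses there. Ldb1 is a cofactor that does not touch DNA itself and is brought to chromatin by partners such as Lhx2, a LIM-homeodomain transcription factor. CTCF marks boundaries and loop anchors, and Rad21 is part of cohesin, the ring that extrudes chromatin loops.

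RefSeq promoter sequence (GRCm38.p6) was matched for 5 of the 8 genes, Nrp1, Nrp2, Plxna3, Sema3a and Sema7a, all on the plus strand, and 3 are printed because peaks lay at or close to them. The Nrp2 window at chr1:62703067-62703316, the 250 bases before the RefSeq start, is shown because 214 of its bases, in capitals, lay inside an Ldb1 region of control neurons. In the Nrp1 window at chr8:128358823-128359072 and the Plxna3 window at chrX:74328816-74329065, capitals mark matches to AGGNGGC, the core of the CTCF motif, on either strand. Neither window held a CTCF peak. The nearest CTCF region was 700 bases from the Nrp1 start and 63949 bases from the Plxna3 start. The Plxna3 window held a peak of the second Rad21 library alone, at rank 22434 of 28151, and the Nrp1 window held no peak.
Nrp2: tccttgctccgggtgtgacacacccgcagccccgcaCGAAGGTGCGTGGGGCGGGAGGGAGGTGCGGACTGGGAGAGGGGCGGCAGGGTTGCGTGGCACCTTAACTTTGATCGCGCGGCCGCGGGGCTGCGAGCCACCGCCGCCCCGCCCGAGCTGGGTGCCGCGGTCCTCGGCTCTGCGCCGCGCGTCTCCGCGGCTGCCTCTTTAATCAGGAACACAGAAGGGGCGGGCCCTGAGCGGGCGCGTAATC
Nrp1: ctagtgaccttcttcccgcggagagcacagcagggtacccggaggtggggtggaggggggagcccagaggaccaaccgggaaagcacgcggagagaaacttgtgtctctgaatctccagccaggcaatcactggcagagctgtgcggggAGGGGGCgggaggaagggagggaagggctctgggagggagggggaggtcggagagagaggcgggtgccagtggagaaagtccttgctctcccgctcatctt
Plxna3: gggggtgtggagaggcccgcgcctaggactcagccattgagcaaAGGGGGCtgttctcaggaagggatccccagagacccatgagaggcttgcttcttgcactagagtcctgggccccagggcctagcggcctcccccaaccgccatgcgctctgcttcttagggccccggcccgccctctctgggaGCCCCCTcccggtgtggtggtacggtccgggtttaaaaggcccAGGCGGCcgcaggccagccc
The Nrp2 window held no match to AGGNGGC, to TAATTA (a homeodomain core) or to the Ebf motif (TCCC and GGGA with any 2 bases between them), each searched on both strands. AGGNGGC had 1 match in the Nrp1 window, 3 in the Plxna3 window and 1 in the Sema7a window, and no match in the Sema3a window. Of 32851 promoter windows of this length, 25.0% held at least 1. TAATTA, found in 4.84% of those promoters, and the Ebf motif, found in 0.779%, had no match in any of the 5 windows. A match is a run of letters and not a measured site.

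Lists differed in length. The first Lhx2 KO library had 4290 peaks and the second 542, the first Olfr1507 library had 5095 and the second 21250, and the 3 control Ldb1 libraries had 24877, 28879 and 16067. The CTCF lists held 27609 and 34210 peaks and the Rad21 lists 10487 and 28151. The lists carry no read numbers, so the depth behind a peak is unknown and an absent peak was not detectable rather than shown to be absent. Each peak's score is the authors' own, and it served only to rank peaks within a list, since ranks from lists of different lengths show no change. It is not labelled which libraries came from different mice, and p-values therefore rest on a spread between libraries that may be technical. Of marker genes, 5 of 5 of mature olfactory neurons and 3 of 3 of immature neurons had a control Ldb1 region within 10 kb. So had 0 of 4 of sustentacular cells and 1 of 3 of basal cells (Krt5), against 39.6% of all protein-coding genes. Median lengths of the 4 marker lists were 20.2, 92.1, 7.23 and 5.84 kb in that order. With so few genes of unlike length, these counts do not settle which cells were present. Whether neurons of other stages contributed to the peaks below was not tested.

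All 8 genes carried Ldb1 in control neurons. A region, meaning linked peaks from at least 2 libraries of a group, lay within 10 kb of each of the 8 genes, against 39.6% of all protein-coding genes, and the 8 genes shared out 68 distinct control Ldb1 regions. Plxna4 held 32, Nrp2 13, Nrp1 9, Plxna1 5, Sema3a and Sema7a 3 each, Sema3f 2 and Plxna3 1. Of the 68 regions, 48 (70.6%) were in all 3 control libraries, against 65.2% of all 22789 control Ldb1 regions. In the wider window of 50 kb 8 of 8 genes had a control Ldb1 region, against 62.5% of all protein-coding genes. Long genes offer more room for regions, so each gene was set beside genes of 0.8 to 1.25 times its length. All 22789 control regions were also put into 10 equal classes of strength, by the mean percentile of their score within the 3 lists, class 1 being the strongest. With the class make-up of the 68, the share of all control regions found in all 3 control libraries was 74.1%.

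The neuropilins, the co-receptors of the secreted semaphorins, were both densely bound. Nrp2 (chromosome 1, 62703317 to 62818692, 115 kb) had 1 and 0 Ldb1 peaks in the Lhx2 KO libraries, 3 and 12 in the Olfr1507 libraries and 14, 15 and 10 in the 3 control libraries. Its 13 control regions came to 9.6 per 100 kb of extended gene, the highest density of the 8 genes, and 4 of 1133 other genes of like length held as many or more (median 1). Nrp1 (chromosome 8, 128358591 to 128505476, 147 kb) had 1 and 0 peaks in the Lhx2 KO libraries, 6 and 8 in the Olfr1507 libraries and 10, 9 and 8 in the control libraries. These are raw counts from lists of very unequal length. For Nrp1 40 of 865 other genes of like length held its 9 regions or more (median 1). The 2 neuropilins differed in strength: 4 of the 9 Nrp1 regions but 1 of the 13 Nrp2 regions fell in class 1.

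The strongest region of the 8 genes lay in Nrp1, at chromosome 8 from 128501482 to 128501829, 3.82 kb inside the higher-coordinate end of the gene. The first Lhx2 KO library had a peak there, among the 1016 of its 4290 peaks that share the lowest score, and the second had none. The peak ranked 35 and 27 in the Olfr1507 lists and 28, 34 and 27 in the 3 control lists, close to the top of all 5. The strongest Nrp2 region, from 62785845 to 62786192, had no Lhx2 KO peak and ranked 1374, 1284 and 1208 in the control lists. A CTCF region began 0.074 kb beyond it without overlapping it. At the starts of both genes Ldb1 was near: the first Nrp2 region (62703103 to 62703496) spans the RefSeq start and covers the capitals of the printed sequence, and it came from control libraries 1 and 2, with a peak of the second Rad21 library over the same promoter. This Nrp2 start region was weak, in class 9, while the first Nrp1 region began 694 bases from the Nrp1 start and fell in class 3.

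Among the plexins, the signal-transducing receptors, Plxna4 stood out by number. Plxna4 (chromosome 6, 32144543 to 32588192, 444 kb) had 2 and 2 Ldb1 peaks in the Lhx2 KO libraries, 6 and 33 in the Olfr1507 libraries, and 32, 34 and 26 in the control libraries. Its 32 regions put it 10th of all protein-coding genes, and 2 of 238 other genes of like length held as many or more (median 3). Regions filled the gene unevenly: the first lay 91.7 kb from the lower-coordinate end, and 4 equal stretches of the gene body held 2, 8, 11 and 11 regions in order of coordinate. Neighbouring Plxna4 regions were a median of 5.84 kb apart (31 gaps, 0.791 to 77.2 kb), and 18 of the gaps (58.1%) were under 10 kb, against 23.0% of the gaps between all control Ldb1 regions, whose median was 33.4 kb. Of its 4 regions in class 1, 1 fell in stretch 3 and 3 in stretch 4, led by the region from 32556131 to 32556468 with ranks 68, 109 and 95 in the control lists.

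Plxna1 (chromosome 6, 89316313 to 89362613, 46.3 kb) had 3 and 0 Ldb1 peaks in the Lhx2 KO libraries, 1 and 4 in the Olfr1507 libraries, and 5, 7 and 3 in the control libraries, so the groups overlapped. Its 5 regions were matched or passed by 46 of 2063 other genes of like length, and the strongest, from 89344506 to 89344843, ranked 579, 771 and 602 in the control lists. The predicted gene Gm40415 overlaps the Plxna1 body, and positions alone do not tell the 2 genes apart. Plxna3 (chromosome X, 74328290 to 74344689, 16.4 kb) had 0 and 0 peaks in the Lhx2 KO libraries, 0 and 1 in the Olfr1507 libraries and 1 in each control library. That single Plxna3 region, from 74333816 to 74334184, ranked 4680, 4873 and 4582 in the control lists and lay 4750 bases from the RefSeq start, and 946 of 2606 other genes of like length had at least 1. Fam50a and Lage3 also lie in the Plxna3 window.

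**Figure D1:**
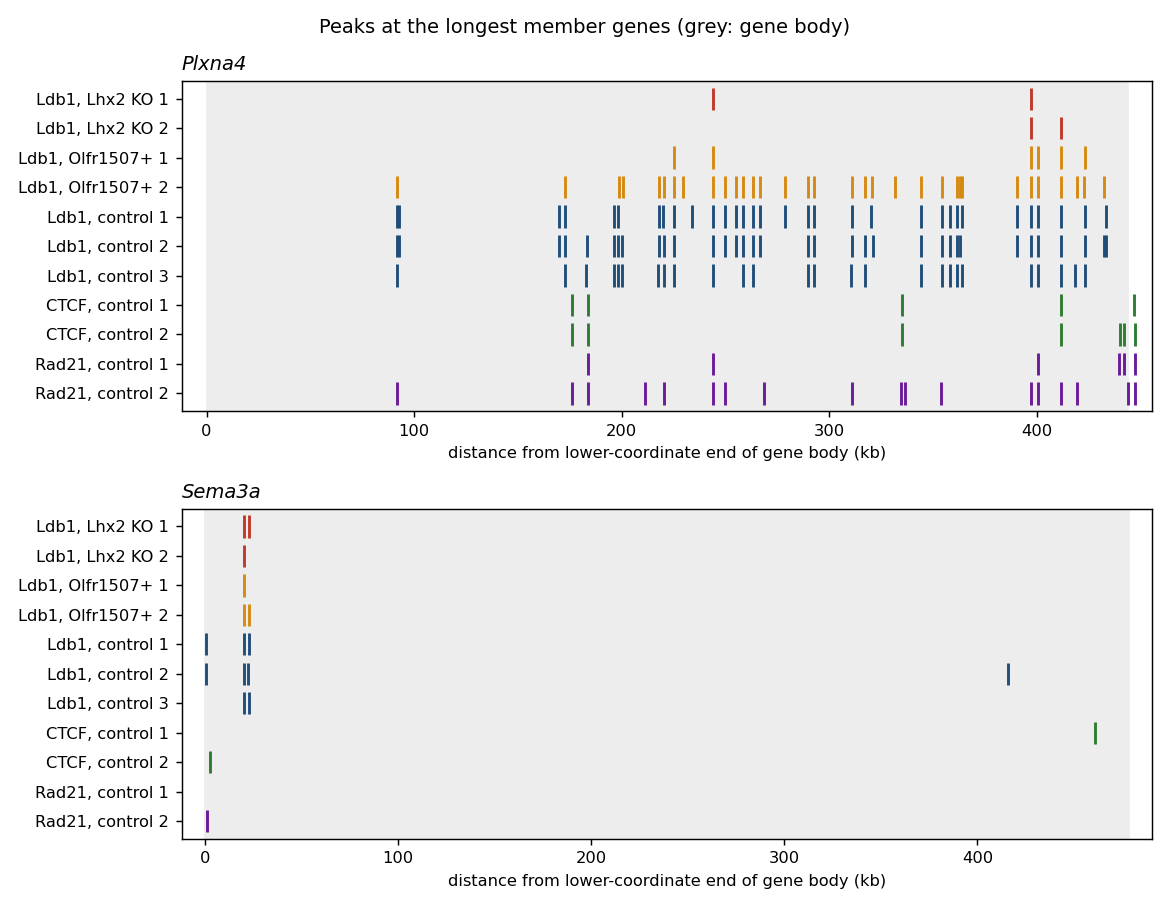
Peaks of the 11 libraries along Plxna4 (top) and Sema3a (bottom), plotted as distance in kb from the lower-coordinate end of the gene body (grey), 1 row per library and 1 tick per peak. Plxna4 holds 32 control Ldb1 regions, crowded towards higher coordinates, while the 3 of Sema3a lie at its lower end.

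Sema3a, the ligand of Nrp1, was the longest of the genes and the most sparsely bound. Sema3a (chromosome 5, 13124822 to 13603485, 479 kb) had 2 and 1 Ldb1 peaks in the Lhx2 KO libraries, 1 and 2 in the Olfr1507 libraries, and 3, 4 and 2 in the control libraries. Its density was 0.602 regions per 100 kb, and 136 of 226 other genes of like length (60.2%) held its 3 regions or more, with a median of 4. The 3 Sema3a regions began 0.496 kb inside the lower-coordinate end and were spaced by 19.6 and then 2.54 kb, after which the rest of the gene body, 456 kb, had no region. The RefSeq start in the promoter table lies 272 kb into the gene body, 249174 bases from the nearest Ldb1 region, so the 3 regions lie at the outer end of the annotated gene and not at that start. Outside the gene, the next control region was 2420 kb below and 325 kb above.

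Sema7a, the membrane-anchored ligand, had few regions but strong ones. Sema7a (chromosome 9, 57939596 to 57962865, 23.3 kb) had 2 and 2 Ldb1 peaks in the Lhx2 KO libraries, 3 and 3 in the Olfr1507 libraries and 3, 4 and 3 in the control libraries. All 3 Sema7a regions were in both Olfr1507 libraries and all 3 control libraries. The strongest, from 57955300 to 57955646, ranked 270, 345 and 288 in the control lists, and the first, from 57942983 to 57943338, ranked 476, 560 and 493. By number, 144 of 2752 other genes of like length had 3 or more. A window of 50 kb held 8 regions, and Ubl7 lies in the narrower window too. Sema3f (chromosome 9, 107681499 to 107710475, 29.0 kb), the ligand of Nrp2, had 1 and 0 peaks in the Lhx2 KO libraries, 0 and 2 in the Olfr1507 libraries, and 2, 2 and 1 in the control libraries. Both Sema3f regions were of middling or low strength: the better, from 107698205 to 107698542, ranked 11950, 11063 and 13036 in the control lists. Gnat1 shares the Sema3f window.

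**Figure D2:**
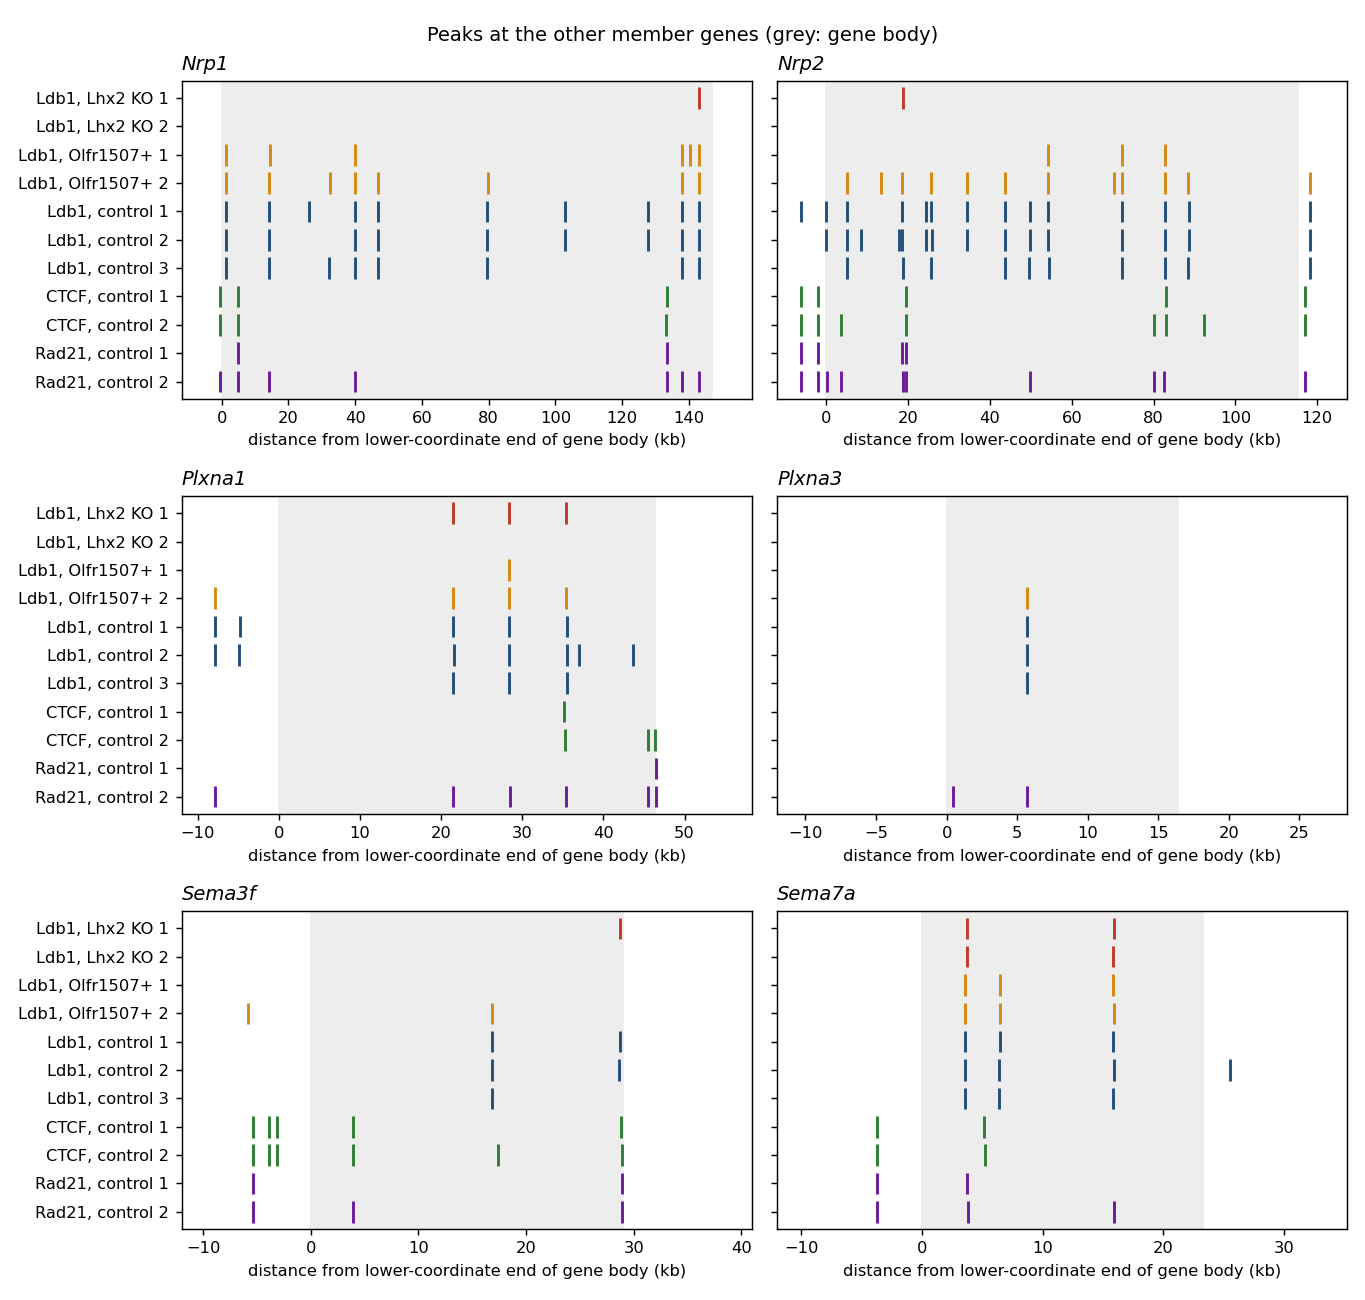
Peaks of the 11 libraries along Nrp1, Nrp2, Plxna1, Plxna3, Sema3f and Sema7a, as distance in kb from the lower-coordinate end of the gene body (grey), 1 row per library and 1 tick per peak. Peaks of the 3 control Ldb1 libraries line up in all 6 genes, and Lhx2 KO peaks are few, with both libraries seen together at Sema7a.

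**Figure D3:**
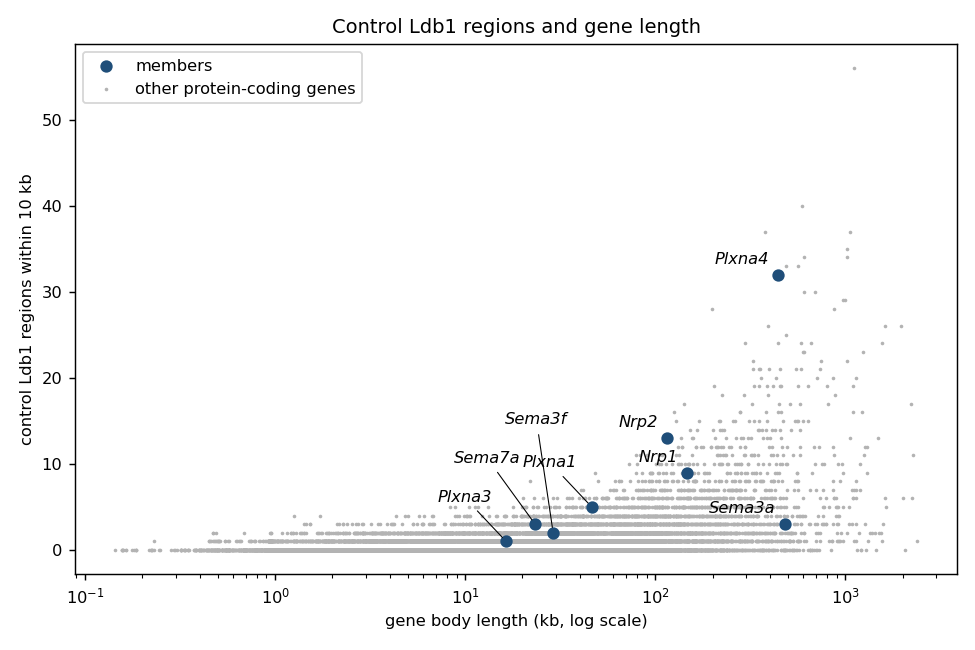
Control Ldb1 regions within 10 kb (vertical axis) against gene body length in kb on a log scale, for the 8 genes (large points) and the other protein-coding genes (small points). Plxna4 with 32 regions and Sema3a with 3 are of similar length.

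CTCF and Rad21 were present at 6 of the 8 genes each, against 56.5% of all protein-coding genes for CTCF regions and 31.6% for Rad21 regions. Plxna3 and Sema3a had no region of either factor within 10 kb. Within 50 kb CTCF regions lay at 8 of 8 genes, against 78.0%, and Rad21 regions at 7 of 8, against 56.7%. Sema3f was the gene with more CTCF than Ldb1 regions, 5 against 2, and 35 of 2625 other genes of like length had as many CTCF regions or more. Its CTCF peaks numbered 5 and 6 in the 2 libraries and its Rad21 peaks 2 and 3. Plxna4 had 5 and 7 CTCF peaks and 6 and 18 Rad21 peaks. Nrp2 had 5 and 8 CTCF and 4 and 10 Rad21 peaks, and Nrp1 3 and 3 CTCF and 2 and 7 Rad21 peaks, so the second Rad21 library had more peaks at each of these genes. By mean percentile over both CTCF lists, the strongest CTCF region of the 8 genes lay in Nrp2 from 62722534 to 62722877, 0.421 kb from an Ldb1 region and on a Rad21 region. In all, the 8 genes had 21 CTCF and 15 Rad21 regions, of which 12 and 9 overlapped a gene body.

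Overlap of Ldb1 with CTCF regions, which need both CTCF libraries, was close at these genes to the share over all control Ldb1 regions. Of the 68 control Ldb1 regions 3 (4.41%) overlapped a CTCF region, against 4.52% of all control Ldb1 regions, 1 each at Plxna1, Plxna4 and Sema3f. The Plxna4 overlap was its strongest Ldb1 region. Counted by peaks of single CTCF libraries, the number at these genes stayed at 3 (4.41%). The share over all control Ldb1 regions was then 4.76% for the first library, 9.22% for the second and 9.56% for either. By that count the overlap at these genes was below the share over all. The median distance from a CTCF region of these genes to the nearest Ldb1 region was 3.03 kb. Rad21 regions overlapped 5 of the 68 (7.35%), against 3.82% of all control Ldb1 regions: 2 in Plxna4 and 1 each at Nrp2, Sema3f and Sema7a. Of the 15 Rad21 regions 10 (66.7%) lay on a CTCF region, against 92.5% of all Rad21 regions. These shares are descriptions of small counts.

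A peak of the second Rad21 library, which has the longer list, lay at 24 of the 68 regions (35.3%), against 23.3% of all control Ldb1 regions and 24.7% of them when given the same make-up in classes of strength. The 24 included all 12 regions in class 1, where 53.4% of all control regions had a peak of either Rad21 library. Those 12 lay in Nrp1 (4), Plxna4 (4), Sema7a (2), Nrp2 (1) and Plxna1 (1). In the shorter list of Rad21 library 1 the number was 5 of the 68 (7.35%), against 4.32% of all and 4.93% with the same make-up. Most of the 24 therefore rest on the second library, and the first gives only a small count.

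Ldb1 peaks at these genes in Lhx2 KO neurons were few, and most lay at strong control regions. The first Lhx2 KO list had 12 peaks and the second 5 at the 8 genes, against 70, 76 and 54 in the control lists. All 17 Lhx2 KO peaks fell on control Ldb1 regions, where 67.4% of the whole first list and 91.1% of the second did. The first library reached 7 of the 8 genes, all but Plxna3, against 15.2% of all protein-coding genes. The second reached Plxna4, Sema3a and Sema7a, 3 of 8 against 2.12%, and these 3 also had a region shared by both Lhx2 KO libraries, against 1.53% of all protein-coding genes. Within 50 kb Sema3f joined them, 4 of 8 against 3.58%. Genes were not matched for length or for control regions in those shares.

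Counted by region, 13 of the 68 control regions (19.1%) had a peak in at least 1 Lhx2 KO library, against 13.2% of all control regions and 15.2% with the same make-up in classes of strength. The first library accounts for 12 of them (17.6% of the 68, against 12.7% of all) and the second for 5 (7.35%, against 2.17%), so 5 would be left without the first. Both libraries had a peak at 4 regions (5.88%), against 1.68% of all. With the same make-up in classes, the shares were 14.6% for the first library, 3.17% for the second and 2.5% for both. Strong regions were those most often seen: 7 of the 12 in class 1 had an Lhx2 KO peak, against 38.8% of all control regions of that class. The 4 regions in both libraries were 2 in Sema7a, 1 in Plxna4 and 1 in Sema3a.

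In Sema7a both of the strongest regions had a peak in both Lhx2 KO libraries. The region from 57942983 ranked 24 of 4290 and 157 of 542 in the Lhx2 KO lists, the best rank of any peak of the 8 genes in the first list, and the region from 57955300 ranked 1522 and 259. The middle Sema7a region, from 57945843 to 57946214, had no Lhx2 KO peak. In Sema3a the region from 13144729 to 13145066 had a peak in both, with ranks 1207 and 378 in the Lhx2 KO lists against 2632, 2700 and 2885 in the far longer control lists; in the second Lhx2 KO list that peak is among the 165 with the lowest score. The Sema3a region from 13147273 ranked 780 in the first Lhx2 KO list. In Plxna4 the region from 32541322 to 32541670 had peaks in both, at rank 3275 among the lowest scores of the first and at rank 157 in the second. A further 2 Plxna4 regions had 1 peak each, at rank 980 of the first list (32388324 to 32388694) and at rank 118 of the second (32556131 to 32556468).

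In Plxna1, Nrp2 and Sema3f, which had no peak in the second Lhx2 KO list, the best peak of the first list lay away from the strongest control region, as it did in Plxna4, Sema3a and Sema7a. In the second list the better of the 2 Plxna4 peaks lay at the strongest Plxna4 region of the control lists. In Plxna1 the first Lhx2 KO list placed the region from 89337639 to 89337988 at rank 224 and the one from 89344506 at rank 532, while all 3 control lists and the second Olfr1507 list placed the region from 89344506 higher. The remaining Plxna1 peak of that list, at the region from 89351607, ranked 2538. In Nrp2 the 1 Lhx2 KO peak (rank 780) lay at the region from 62721752 to 62722113, which ranked 10688, 11526 and 9176 in the control lists and overlaps a Rad21 region, and not at the strongest Nrp2 region. In Sema3f the 1 Lhx2 KO peak (rank 532) lay at the weak control region from 107710000 to 107710365, which overlaps a CTCF and a Rad21 region.

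**Figure D4:**
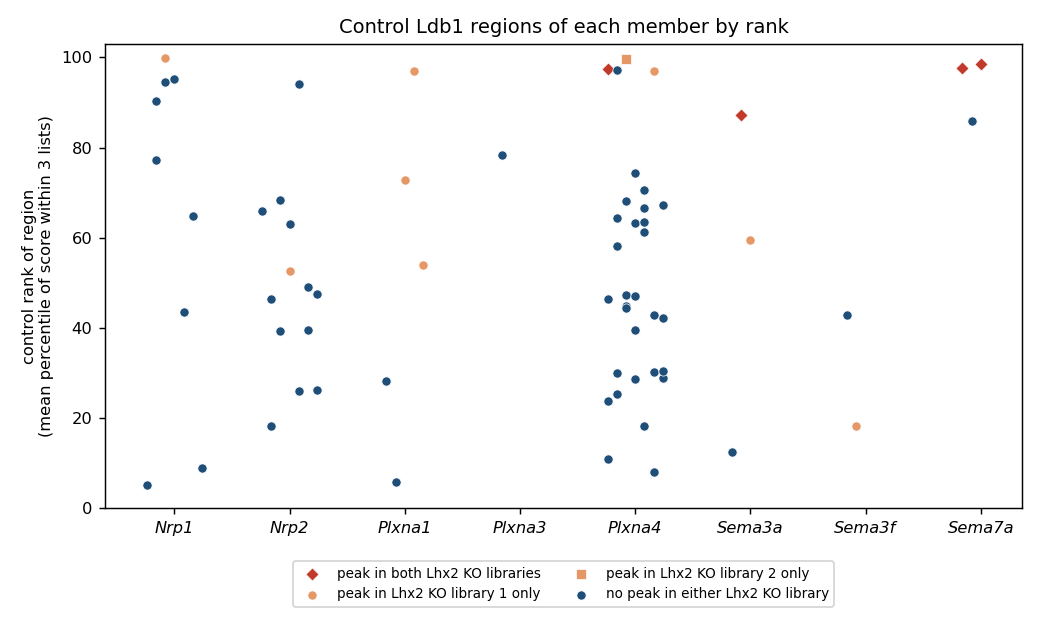
Each of the 68 control Ldb1 regions by gene (horizontal axis) and by its mean percentile of score within the 3 control lists (vertical axis, 100 the strongest), with colour and shape giving its presence in the 2 Lhx2 KO libraries. The 4 regions seen in both libraries, at Plxna4, Sema3a and Sema7a, are among the strong ones, while 3 of the 4 strongest Nrp1 regions had no Lhx2 KO peak.

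Because the lists differ so much in length, each gene's peaks were also taken per 1000 peaks of the list. Both Lhx2 KO libraries lay below all 3 control libraries for Nrp1, Nrp2 and Plxna3, 3 of 8 genes against a background of 34.8% of 11291 genes with a peak. Both lay above all control libraries for Sema3a and Sema7a, 2 of 8 against 2.74%. In the short second Lhx2 KO list a single peak, as at Sema3a, comes to 1.85 per 1000. The largest control value of the 8 genes was 1.62, at Plxna4. For these genes, lying above the controls in that list therefore means only that a peak was present. Nrp1 averaged 0.117 ± 0.165 peaks per 1000 in Lhx2 KO (SD, n = 2) and 0.404 ± 0.0931 in control neurons (SD, n = 3). Nrp2 averaged 0.117 ± 0.165 in Lhx2 KO and 0.568 ± 0.0517 in control neurons. Sema7a averaged 2.08 ± 2.28 in Lhx2 KO and 0.149 ± 0.0342 in control neurons, and Sema3a 1.16 ± 0.975 in Lhx2 KO and 0.128 ± 0.00942 in control neurons. None passed the test: each of these 5 genes had p = 0.1 in a two-sided exact permutation test, the smallest that 10 assignments of 2 against 3 libraries allow, and an adjusted p of 0.29 over all genes tested. For Plxna1, Plxna4 and Sema3f 1 Lhx2 KO library lay above all controls and the other below (exact permutation p = 0.7 each). With 1 library left out, the Lhx2 KO minus control difference ran from 0.318 to 3.54 peaks per 1000 for Sema7a, from 0.338 to 1.72 for Sema3a and from -0.404 to -0.171 for Nrp1; each range runs between leaving out 1 and the other Lhx2 KO library. Then 5 genes lay below (without the first Lhx2 KO library) and 4 above (without the second). These counts rest on 1 Lhx2 KO library, and no share over all genes is given beside them. No gene of the 11291 had an unadjusted p under 0.05.

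The differences of Plxna4, Sema7a, Nrp2, Plxna3 and Sema3f depended on list length. With the 542 best-scored peaks of every list, the Lhx2 KO minus control difference of Sema7a was -0.308 peaks per 1000 instead of 1.93. That of Plxna4 was -1.23 instead of 0.717. Then 0 of the 8 genes lay above the controls and 1, Nrp1, lay below. Sema3a had 0 and 1 peaks in the Lhx2 KO libraries and 0 in each control library. Nrp2, Plxna3 and Sema3f had 0 peaks in every Lhx2 KO and control library at that length. No share over all genes is given for this setting. Taking the 4290 best-scored peaks of each list, a choice made after the data were seen and without the second Lhx2 KO library, gave 12 peaks at the 8 genes in Lhx2 KO and 14 in each of the 3 control libraries. Nrp1 had 1 peak in Lhx2 KO, against 4, 4 and 4 in control neurons, and Plxna4 2 against 4, 4 and 4. Nrp2 had 1 against 1, 1 and 1, so its difference was 0, and Plxna3 had 0 in all. Sema3f had 1 against 0, 0 and 0. Plxna1 had 3 against 1, 1 and 1, Sema3a 2 against 1, 1 and 1, and Sema7a 2 against 3, 3 and 3. The 14 control peaks stood at the same 14 regions in all 3 libraries. Of those 14, 7 had a peak in the first Lhx2 KO library, against 29.6% of the 3725 such control regions of the genome, and outside the top peaks 5 of 54 had one (9.26%), against 9.14%.

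**Figure D5:**
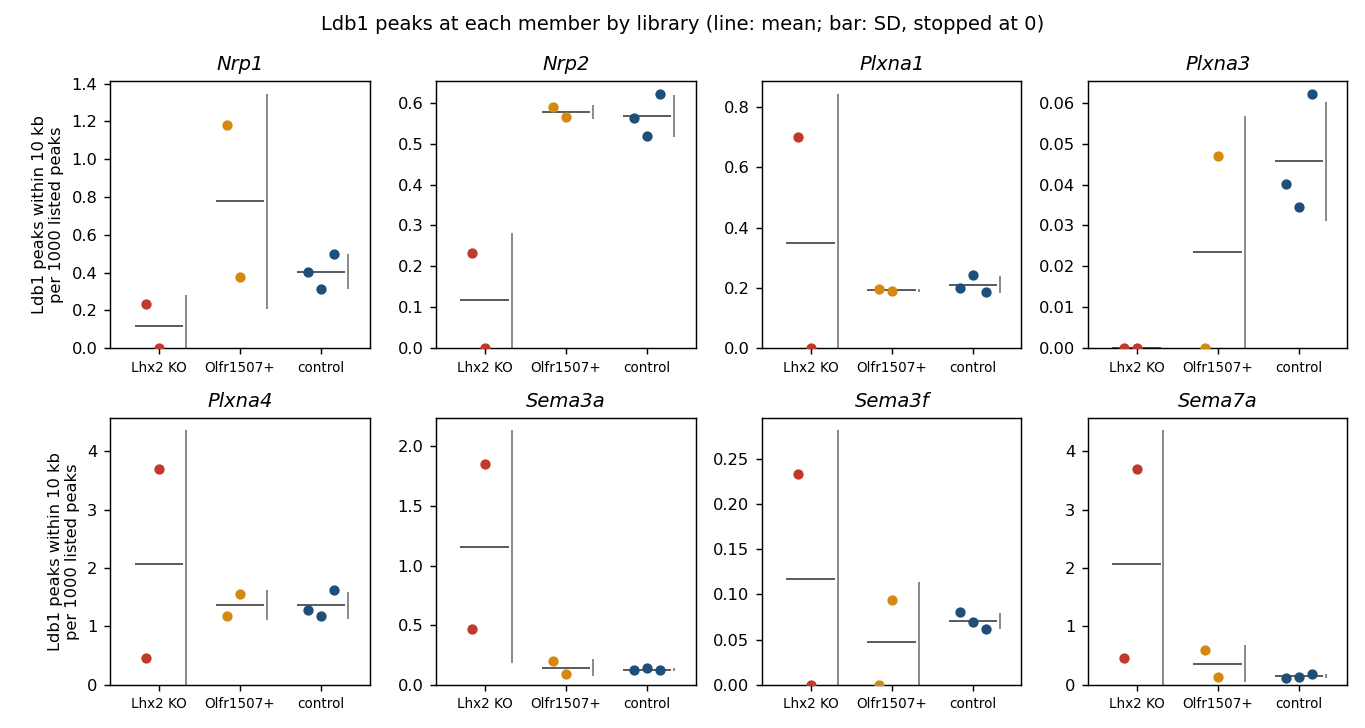
Ldb1 peaks within 10 kb of each gene per 1000 peaks of the list, 1 point per library in Lhx2 KO (n = 2), Olfr1507+ (n = 2) and control neurons (n = 3), with the mean (line) and SD (bar, stopped at 0). Nrp1, Nrp2 and Plxna3 are lower in both Lhx2 KO libraries than in every control library, as were 34.8% of 11291 genes. Sema3a and Sema7a are higher, as were 2.74%. With the 542 best-scored peaks of each list, the difference was 0 for Nrp2 and Plxna3 and -0.308 for Sema7a.

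In Olfr1507+ cells, sorted for expression of a single odorant receptor, Ldb1 peaks lay at the control positions about as often at these genes as elsewhere. The Olfr1507 lists had 20 and 65 peaks at the 8 genes, and 1 of the 20 and 13 of the 65 lay outside control regions, where 97.6% of the whole first list and 78.8% of the second lay at control regions. A region shared by both Olfr1507 libraries lay at 6 of the 8 genes, against 11.6% of all protein-coding genes (7 of 8 within 50 kb, against 22.9%), namely 6 regions in Plxna4, 5 in Nrp1, 3 each in Nrp2 and Sema7a, and 1 each in Plxna1 and Sema3a. Peaks of both Olfr1507 libraries lay at 19 of the 68 control regions (27.9%), against 21.6% of all control regions and 25.4% with the same make-up in classes. A peak of at least 1 Olfr1507 library lay at 52 (76.5%), against 73.7% of all and 78.2% with the same make-up. All 12 in class 1 had both, where 95.9% of that class did. The first, shorter Olfr1507 list had a peak at 5 of the 9 control regions of Nrp1, 6 of the 32 of Plxna4 and 3 of the 13 of Nrp2.

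Per 1000 listed peaks, 0 of the 8 genes lay below all control libraries in both Olfr1507 libraries, against 9.33% of 11324 genes, and 0 lay above, against 4.57%. Nrp2 averaged 0.577 ± 0.017 peaks per 1000 in Olfr1507+ cells (SD, n = 2) and 0.568 ± 0.0517 in control neurons (SD, n = 3). Plxna4 averaged 1.37 ± 0.265 in Olfr1507+ cells and 1.36 ± 0.23 in control neurons. Nrp1 averaged 0.777 ± 0.567 in Olfr1507+ cells and 0.404 ± 0.0931 in control neurons, with the first Olfr1507 library at 1.18 and the second at 0.376, inside the control range. Without the first Olfr1507 library the Olfr1507 minus control difference was -0.0274 for Nrp1, against 0.373 with it, and -0.00743 for Sema7a, against 0.216. The exact permutation p for Nrp1 was 0.3 (two-sided), and the smallest of the 8 genes was 0.2, for Sema7a, with an adjusted p of 0.859. The Lhx2 KO and Olfr1507 comparisons share the 3 control libraries.

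The rest of the pathway was counted in the same way, with no allowance for gene length. Of 47 other genes of the pathway 31 (66.0%) had a control Ldb1 region, with a median of 1 region a gene, where the median of the 8 genes was 4. By family these were 11 of 17 other semaphorins, led by Sema6a with 16 regions, Sema3e with 5 and Sema6d with 4, and 4 of 6 other plexins, led by Plxna2 with 4, Plxnb2 with 3 and Plxnc1 with 2. Plxnc1 is the receptor of Sema7a. Among signalling partners 16 of 24 had one, led by Mical2 with 11, Mical3 with 7 and Gsk3b with 7. MICAL proteins oxidise actin downstream of plexins, and Gsk3b is a kinase of the Sema3a response. Of the other class 3 semaphorins, Sema3c and Sema3d had no Ldb1 peak in any of the 7 Ldb1 libraries. In other guidance families, 12 of 22 Eph and ephrin genes (median 1 region) and 12 of 14 Robo, Slit and adhesion genes (median 3.5) had a control Ldb1 region.

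The genes with the most similar pattern of peak numbers over the 11 libraries were looked up for the pair with the most regions. For Plxna4 these were Syt1 (Pearson r = 0.984), Tmem178b (0.982) and Cadm1 (0.977), out of 109 genes with a comparable total of peaks. For Nrp2 they were Lingo1 (0.991), Kcnma1 (0.991) and Mvb12b (0.989), out of 558. The 11 points of each correlation share the lengths of the lists, and no test was made.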

How the data were processed

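Each of the 11 lists used holds the peaks of 1 library of sorted neurons, so replicates were not pooled. The build is mm10, and the software versions are cutadapt 1.9.1, HOMER 4.7, SAMtools 1.3.1, STAR 2.5.3a and Bowtie2 2.3.2, as well as Picard, per the submitters' processing notes, which give no order or role; the sources used here do not give the peak threshold or the control library. The deposited score is a whole number set by the authors, with unknown scaling, and its single use was to order the peaks inside 1 list. Few reads or weak enrichment also shorten a list, so peak numbers were set beside numbers per 1000 listed peaks.

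Chromosomes 1 to 19, X and Y were used. Gene bodies came from a RefSeq table of GRCm38.p6, which is mm10; 108 protein-coding genes on scaffolds were left out, and exons and introns were not told apart. Overlap means at least 1 base. A region needs peaks from 2 or more libraries of its group, and control Ldb1 regions were ordered by mean percentile of score, with 0 for an absent peak, and cut into 10 classes. Groups were compared per gene over libraries with a two-sided exact permutation test of the difference of means, with Benjamini-Hochberg adjustment over all genes with a peak in the libraries compared; the test was tried on simulated data first. Python 3.11.15, pandas 2.3.3, numpy 2.4.6, scipy 1.17.1, statsmodels 0.14.6 and matplotlib 3.10.9 were used. Every one of the 8 genes was named, with its strongest control Ldb1 region and every region with an Lhx2 KO peak; of each other pathway family the 3 genes with most control regions were named, with ties broken by mean rank, and for the pair of genes with most regions the 3 genes most alike. Gm40415, Fam50a, Lage3, Gnat1, Ubl7, Sema3c, Sema3d, Krt5 and regions other than these were named after their values were seen. The genes, lists and tests were chosen with earlier results of these data known. Alternatives were wider and narrower windows, stricter overlap, top-scored parts of the lists, leaving out each library and a replicate block. Labels conflict on bright or dim cells for 2 RNA samples, which were given no group.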

Additional observations from a re-analysis of the deposited data

How the results depend on the processing

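Of 292 values under other settings, 238 were classed as the same, 30 as moved and 24 changed sign. A count was classed as the same when within 1.5-fold of the reported one, and as moved otherwise. A difference was classed as the same when it kept its sign, whatever its size, and as moved when it became 0. The causes were not tested. In this section, counts of genes below or above the controls have no share over all genes beside them, so they are descriptions only. With the better-scored 50% of each list 42 of the 68 control Ldb1 regions were left, 12 with a peak in both Olfr1507 libraries, 0 at CTCF and 0 at Rad21. A reciprocal overlap of 50% left 2 at Rad21, and a window of 50 kb gave 5 at CTCF. Leaving out 1 library at a time gave 5 to 13 regions with an Lhx2 KO peak (5 without the first Lhx2 KO library). It gave 19 to 52 with a peak in every Olfr1507 library kept and 4 to 24 at Rad21. The 52 and the 24 came without the first library of the group, when a peak of the second alone was enough.

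For Lhx2 KO minus control, in peaks per 1000, genes below all controls numbered 1 and above 0 with the 542 best peaks, and 3 to 5 and 2 to 4 when 1 library was left out. With 542 peaks Plxna4 was at -1.23, Sema7a at -0.308 and Nrp2, Plxna3 and Sema3f at 0. With 4290 peaks and without the second Lhx2 KO library, Plxna4 was at -0.466, Sema7a at -0.233 and Nrp2 and Plxna3 at 0. The setting with 4290 peaks was added after the data were seen. With 1 library left out Plxna4 ran from -0.894 to 2.33, Plxna1 from -0.21 to 0.489 and Sema3f from -0.0706 to 0.162, while Sema7a (0.318 to 3.54), Sema3a (0.338 to 1.72), Nrp1 (-0.404 to -0.171), Nrp2 (-0.568 to -0.335) and Plxna3 (-0.0512 to -0.0374) held their signs.

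For Olfr1507 minus control, 1 gene lay below with the gene body alone, 1 above with the 5095 best peaks, and 0 to 2 below and 0 to 3 above when 1 library was left out. Signs turned in these settings: Plxna1 0.00857 with the body alone; Nrp2 -0.0136, Plxna1 0.0702, Plxna4 -0.0175, Sema3a -0.00761 and Sema3f 0.00946 with 50 kb; Sema3a -0.0981 with 5095 peaks. With 1 library left out 7 genes turned, among them those with the largest differences, Nrp1 and Sema7a (both without the first Olfr1507 library); the ranges were Nrp1 -0.0274 to 0.774, Nrp2 -0.0158 to 0.0357, Plxna3 -0.0457 to 0.00137, Plxna4 -0.183 to 0.192, Sema3a -0.0337 to 0.0684, Sema3f -0.0706 to 0.0235 and Sema7a -0.00743 to 0.44.

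By replicate number the libraries showed little sign of pairing. For each gene, the difference of replicate 1 minus replicate 2 was taken within each group. Over 11291 genes this difference in Lhx2 KO correlated with that in control neurons at Pearson r = -0.0154. For Olfr1507 and control it did so at 0.076 over 11324 genes. With a replicate block, 1 gene lay below and 3 above for Olfr1507, and 3 below and 2 above for Lhx2 KO. Lists without read numbers, as few as 542 peaks, limit what an absent peak can show.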
